A study of Mus musculus with 12 samples.

Results

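The circadian clock genes described here were 10 genes given by name, a choice made with results of these arrays known: Npas2, Cry1, Cry2, Per1, Per2, Per3, Nr1d1, Bhlhe40, Dbp and Nfil3. A gene was measured where a probe set of the array was annotated with that gene and no other, which held for 9 of them, with 1 probe set each, among 21557 such probe sets and 23991 in all. Per2 is not analysed here. The arrays came from whole small intestine of wild type BALB/c mice, taken 14 days after total body irradiation and transfer of C57BL/6N bone marrow with T cells of the same donor strain, a model of acute graft-versus-host disease. All 12 arrays, 6 per group, came from mice with this allogeneic transplant. In the TUDCA group mice received 200 mg/kg tauroursodeoxycholic acid, a taurine-conjugated bile acid also used as a chemical chaperone, by intraperitoneal injection every day, and in the vehicle group they received the same volume of 200 µl without it. No untreated or syngeneic group enters the comparison, and the age of the mice and the hour at which tissue was taken are not given in the sources used here. Each value is therefore a single reading of a rhythmic gene at an unstated phase.

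In the cellular clock, the activators CLOCK or NPAS2 pair with BMAL1, the product of Arntl, and bind E-boxes in the promoters of their targets. Among these targets are the Per and Cry genes, whose proteins return to the nucleus and inhibit the activators, and Nr1d1 and Nr1d2, which encode the nuclear receptors REV-ERBα and REV-ERBβ. REV-ERB proteins repress Arntl, Npas2, Nfil3 and Cry1 through ROR elements. A further arm consists of the activator DBP and the repressor NFIL3, which compete for D-boxes, and BHLHE40, also called DEC1, competes at E-boxes. In the gut, epithelial cells carry such a clock, and nutrient transporters are among its outputs.

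Promoter sequences of 8 of the 10 genes were taken from RefSeq (GRCm38.p6), and the 250 bases before the start site were searched on both strands for CACGTG (the E-box), CACGTT (a variant E-box), TTATGTAA (a D-box) and AGGTCA (the half-site within ROR elements). Bhlhe40 and Per2 had no promoter entry and were not searched. The promoters of the 3 genes that fell with TUDCA are shown whole, because these are the genes called in the same direction, with matches in capitals.
Cry2, chr2:92434070-92434319, minus strand: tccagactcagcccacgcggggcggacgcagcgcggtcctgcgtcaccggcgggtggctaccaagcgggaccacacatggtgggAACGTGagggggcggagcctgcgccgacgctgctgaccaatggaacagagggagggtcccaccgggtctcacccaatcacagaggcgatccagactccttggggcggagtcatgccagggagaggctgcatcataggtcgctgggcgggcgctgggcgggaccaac
Nfil3, chr13:52981040-52981289, minus strand: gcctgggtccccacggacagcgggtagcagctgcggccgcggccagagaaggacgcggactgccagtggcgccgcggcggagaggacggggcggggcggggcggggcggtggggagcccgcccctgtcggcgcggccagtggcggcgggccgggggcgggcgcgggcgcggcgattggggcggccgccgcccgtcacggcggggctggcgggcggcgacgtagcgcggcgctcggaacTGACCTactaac
Npas2, chr1:39194022-39194271, plus strand: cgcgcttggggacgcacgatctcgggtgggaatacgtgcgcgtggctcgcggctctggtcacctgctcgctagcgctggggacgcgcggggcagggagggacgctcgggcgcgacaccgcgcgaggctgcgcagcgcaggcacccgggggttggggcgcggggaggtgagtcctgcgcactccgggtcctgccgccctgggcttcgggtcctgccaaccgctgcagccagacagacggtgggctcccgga
Cry2 held 1 match, a variant E-box read on the opposite strand, and Nfil3 held a half-site read on the opposite strand 12 bases before it. Npas2 held none of the 4 motifs in this window. Over all 32851 promoter windows of the same length, 6.02% held the E-box, 3.85% the variant E-box, 0.819% the D-box and 14.0% the half-site, and no matches overlapped in these genes. A match is a string of letters and was not tested as a binding site.

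Genes that did not pass the test are shown only around their matches, for comparison with the promoters above.
Cry1 E-box, chr10:85185089-85185134, minus strand: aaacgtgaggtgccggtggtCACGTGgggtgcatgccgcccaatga
Per1 E-box, chr11:69098763-69098808, plus strand: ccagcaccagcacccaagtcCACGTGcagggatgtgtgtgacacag
Nr1d1 variant E-box, chr11:98775380-98775425, minus strand: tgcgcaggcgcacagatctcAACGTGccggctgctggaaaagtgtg
Per3 distal D-box, chr4:151044843-151044890, minus strand: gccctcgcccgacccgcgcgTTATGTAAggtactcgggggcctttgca
Per3 proximal D-box, chr4:151044796-151044843, minus strand: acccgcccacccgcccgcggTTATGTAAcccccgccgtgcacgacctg
Per3 held 2 D-boxes, 205 and 158 bases before its start site, whereas Cry1 held an E-box 60 bases before its own and Per1 one farther upstream. Cry1 also held a variant E-box at 79 bases, Per1 a half-site at 137 bases and Nr1d1 a variant E-box at 28 bases. The variant E-box of Cry1 stands in lower case near the left end of its stretch above, where only the named match is in capitals. The Dbp window and the window of a second Per1 start site held no match.

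With TUDCA, the repressor gene Cry2, the activator gene Npas2 and the repressor gene Nfil3 fell, and Bhlhe40 rose. The differences lay between 0.43 and 0.57 log2 units in size, from 1.34-fold to 1.49-fold. The period genes Per1 and Per3, the cryptochrome Cry1, the REV-ERBα gene Nr1d1 and the output regulator Dbp did not pass the test. Thus 1 of 9 measured genes was called higher and 3 lower, where 1.00% of all probe sets were called higher, 1.52% lower and 2.52% in either direction (limma, adjusted p below 0.05 over all probe sets). Because of how the members were chosen, their share of calls describes this set of names and is no test of the clock as a whole. Differences are log2 TUDCA minus vehicle, estimated within 2 ranges of the sample numbers in the labels (a low range of 57 to 70, which holds 4 vehicle arrays but only 2 of TUDCA, and a high range above 100, which holds 2 vehicle arrays and the other 4). The labels leave unsaid what the ranges stand for.

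**Figure D1:**
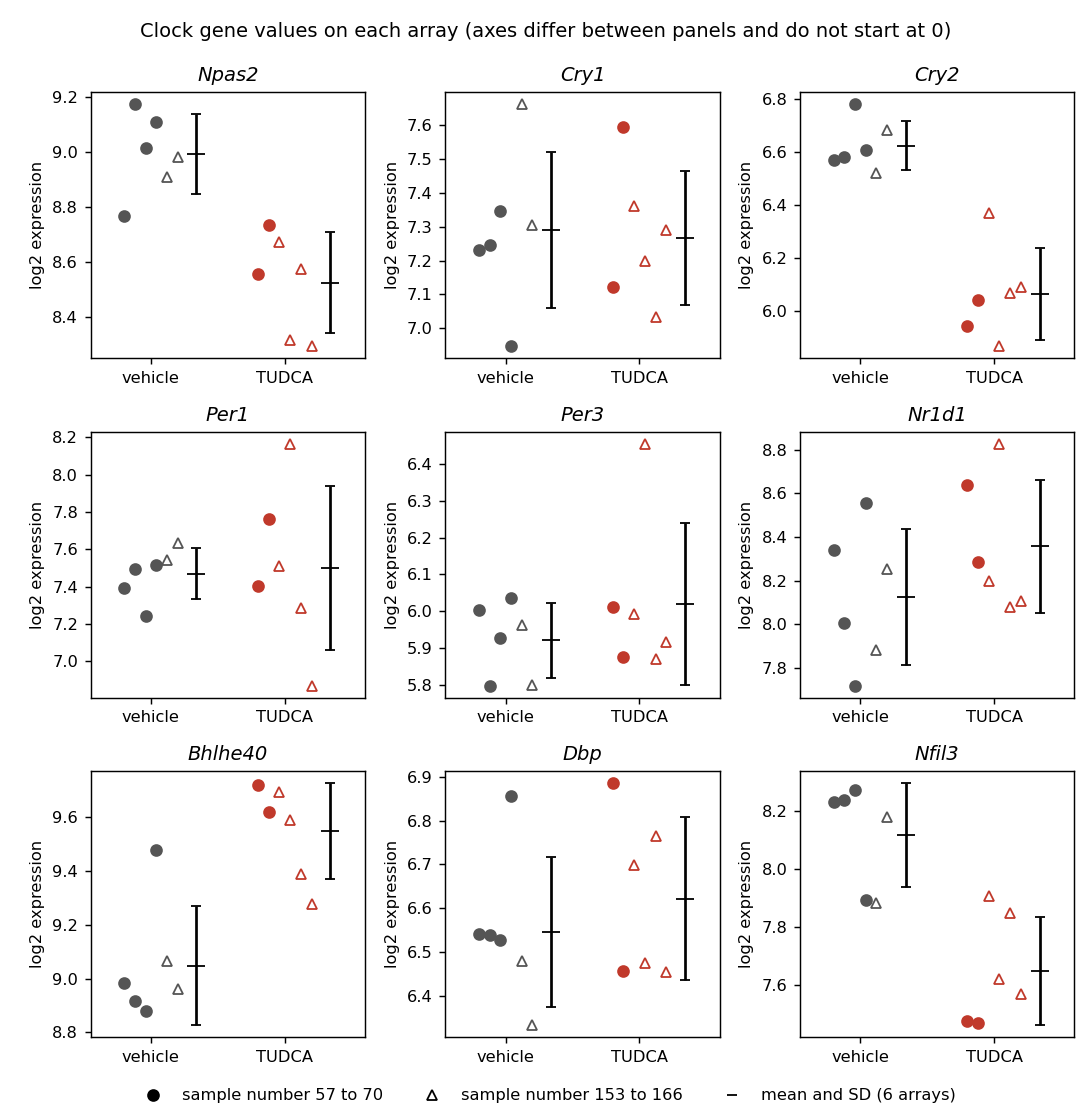
Log2 expression of the 9 measured clock genes on each of the 12 arrays, grouped by treatment on the horizontal axis; filled circles are the low range of sample numbers, open triangles the high range, and the bar at the right of each group is its mean and SD. Cry2 and Npas2 separate the groups completely, Nfil3 and Bhlhe40 nearly so, and in the other 5 panels the groups overlap widely.

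Markers of several cell types moved with treatment on the same arrays, where 1.00% of all probe sets were called higher and 1.52% lower. Of 14 measured T and NK cell markers 7 fell, and their mean log2 level per array was 5.89 to 7.30 under TUDCA and 7.09 to 7.83 under vehicle. Of 19 enterocyte markers 8 fell (mean level 10.78 to 11.13 under TUDCA and 11.12 to 11.36 under vehicle), and of 10 goblet cell markers 5 rose (10.54 to 10.93 and 10.12 to 10.61). No marker of macrophages and dendritic cells (12 measured), smooth muscle (10) or CXCL12-abundant reticular cells (10) passed the test in limma. At an unadjusted p below 0.05 there were 3 of 12, 3 of 11 and 1 of 10 probe sets. Over all 23991 probe sets, 3380 had such a p. The enterocyte genes Vil1 and Fabp2 and the goblet cell gene Muc2 had means of 12.12, 13.11 and 13.05 under TUDCA and of 12.23, 13.27 and 12.86 under vehicle, where array values ran from 1.94 to 13.8. These 3 genes of the labelled tissue were thus present, although 1 label field names CXCL12-abundant reticular cells. The lowest means of the enterocyte list were those of Fabp1 (5.145 under TUDCA and 5.535 under vehicle) and Lct (5.173 and 5.345). Means of the reticular cell markers ran from 4.607 and 4.495 for Foxc1 to 9.312 and 9.355 for Pdgfra. In RNA of whole tissue, fewer cells of a type and less RNA per cell cannot be told apart. The part of these marker shifts in the differences of Cry2, Npas2, Nfil3 and Bhlhe40 was not tested.

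Cry2 encodes a cryptochrome, a core repressor of the clock that inhibits CLOCK and BMAL1. Its log2 value ran from 5.87 to 6.37 with a median of 6.06 in the TUDCA arrays, and from 6.52 to 6.78 with a median of 6.60 in the vehicle arrays. Every TUDCA array lay below every vehicle array, a separation that 1.98% of all probe sets showed in either direction and that 2 of the 9 clock genes showed. The means were 6.06 ± 0.17 (SD, n = 6) and 6.62 ± 0.09 (SD, n = 6), and the difference was -0.57 ± 0.09 (SE; 95% interval -0.76 to -0.38, adjusted p = 0.00371 in limma). An exact two-sided permutation of the treatment labels within the number ranges gave p = 0.00444 for Cry2, the smallest that its 225 relabelings allow. The call held with each of the 12 arrays left out in turn (adjusted p from 0.000713 to 0.0253), and ended in the high number range alone (-0.50, adjusted p = 0.328). A second probe set, annotated with Cry2 and another gene together and therefore outside the rule, stood at 5.32 ± 0.18 (SD, n = 6) and 5.39 ± 0.17 (SD, n = 6) and did not pass (-0.05 ± 0.11 SE, adjusted p = 0.882), so the fall of Cry2 rests on 1 probe set.

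Cry1 encodes the other cryptochrome, which in many tissues peaks later than Cry2. On the log2 scale Cry1 ran from 7.03 to 7.59 with a median of 7.24 under TUDCA and from 6.95 to 7.66 with a median of 7.28 under vehicle. The vehicle arrays alone spanned the whole range of the TUDCA arrays. The difference was -0.05 (95% interval -0.30 to 0.21, adjusted p = 0.908), and it was 0.17 within the low number range and -0.26 within the high one.

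Npas2 encodes a paralogue of CLOCK and is the only positive-arm gene among the 10. Its log2 value ran from 8.29 to 8.74 with a median of 8.57 under TUDCA and from 8.77 to 9.17 with a median of 8.997 under vehicle. The groups did not overlap, although the highest TUDCA array (replicate 2) and the lowest vehicle array (replicate 1) almost met. The means were 8.52 ± 0.18 (SD, n = 6) and 8.99 ± 0.15 (SD, n = 6), and the difference was -0.43 ± 0.09 (SE; 95% interval -0.62 to -0.23, adjusted p = 0.0215). The exact permutation p was 0.00889. The limma call ended without TUDCA replicate 1 (adjusted p = 0.0915) or without vehicle replicate 6 (adjusted p = 0.0816), with the difference at -0.41 and -0.40. It also ended in the low number range alone (-0.37, adjusted p = 0.194 in limma) and in the high range alone (-0.48, adjusted p = 0.281 in limma).

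Nfil3 encodes a repressor that binds the same D-boxes as DBP and is also needed for the development of innate lymphoid cells. Its log2 value ran from 7.47 to 7.91 with a median of 7.59 under TUDCA and from 7.88 to 8.27 with a median of 8.21 under vehicle. Only the highest TUDCA array (replicate 3) reached the 2 lowest vehicle arrays (replicates 4 and 5). The means were 7.65 ± 0.19 (SD, n = 6) and 8.12 ± 0.18 (SD, n = 6), and the difference was -0.49 ± 0.10 (SE; 95% interval -0.71 to -0.27, adjusted p = 0.0215, exact permutation p = 0.00889). The call of Nfil3 ended without TUDCA replicate 1 (adjusted p = 0.102), TUDCA replicate 2 (0.0948) or vehicle replicate 6 (0.0677). The difference was -0.69 in the low number range alone (adjusted p = 0.0189 in limma) and -0.30 in the high range alone, where the call ended (adjusted p = 0.514 in limma). In limma's interaction test across all probe sets this gap had an unadjusted p of 0.0542 and an adjusted p of 0.653. The gap of Cry1 had an unadjusted p of 0.0677 in that test, and 0 of the 9 clock genes had one below 0.05.

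Bhlhe40 encodes a repressor that acts at E-boxes and is induced by many other signals besides the clock. On the arrays Bhlhe40 ran from 9.28 to 9.72 with a median of 9.61 under TUDCA and from 8.88 to 9.48 with a median of 8.97 under vehicle. A single vehicle array, replicate 4, overlapped the TUDCA arrays, and the remaining vehicle arrays stayed at or below 9.06. The means were 9.55 ± 0.18 (SD, n = 6) and 9.05 ± 0.22 (SD, n = 6), and the difference was 0.54 ± 0.11 (SE; 95% interval 0.31 to 0.77, adjusted p = 0.0148, exact permutation p = 0.00444). The call of Bhlhe40 ended without TUDCA replicate 1 (adjusted p = 0.0756) or replicate 2 (adjusted p = 0.0523), while without vehicle replicate 4 the difference was 0.60 (adjusted p = 0.00357). It ended too in the low number range alone (0.61, adjusted p = 0.0993 in limma) and in the high range alone (0.475, adjusted p = 0.281 in limma).

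Per1 and Per3 encode period proteins, which form the repressor complex with the cryptochromes. Per1 is also an early-response gene that light and glucocorticoids induce in other settings. The Per1 log2 value ran from 6.87 to 8.16 with a median of 7.46 under TUDCA and from 7.24 to 7.64 with a median of 7.50 under vehicle. The TUDCA arrays lay on both sides of the vehicle arrays, with replicates 2 and 4 above and replicate 6 below all of them. Around a difference of 0.02, the 95% interval of Per1 ran from -0.35 to 0.39 (adjusted p = 0.979). The SD of Per1 was 0.44 under TUDCA and 0.14 under vehicle, and its residual SD exceeded that of 96.8% of all probe sets. Per3 ran from 5.87 to 6.46 with a median of 5.95 under TUDCA and from 5.80 to 6.04 with a median of 5.95 under vehicle. Apart from TUDCA replicate 4, all arrays lay within the span of the vehicle arrays, and the difference was 0.09 (95% interval -0.13 to 0.31, adjusted p = 0.773).

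Nr1d1 encodes REV-ERBα, the repressor of Arntl and Npas2. Its log2 value ran from 8.08 to 8.83 with a median of 8.24 under TUDCA and from 7.72 to 8.56 with a median of 8.13 under vehicle. All 6 TUDCA arrays lay above the vehicle mean of their own number range, yet the groups overlapped over most of their span. The difference was 0.27 ± 0.16 (SE; 95% interval -0.07 to 0.61, adjusted p = 0.491, exact permutation p = 0.204). Its residual SD was larger than that of 95.8% of all probe sets and its SD was 0.31 in both groups, the highest of the 9 genes under vehicle and second to Per1 under TUDCA.

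Dbp encodes an activator of D-box genes and is among the most strongly rhythmic transcripts of peripheral tissues. The log2 values of Dbp ran from 6.45 to 6.88 with a median of 6.59 under TUDCA and from 6.33 to 6.86 with a median of 6.53 under vehicle. The 2 groups covered almost the same span, and 5 of 6 TUDCA arrays lay above the vehicle mean of their range. The difference was 0.12 (95% interval -0.09 to 0.34, adjusted p = 0.652).

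**Figure D2:**
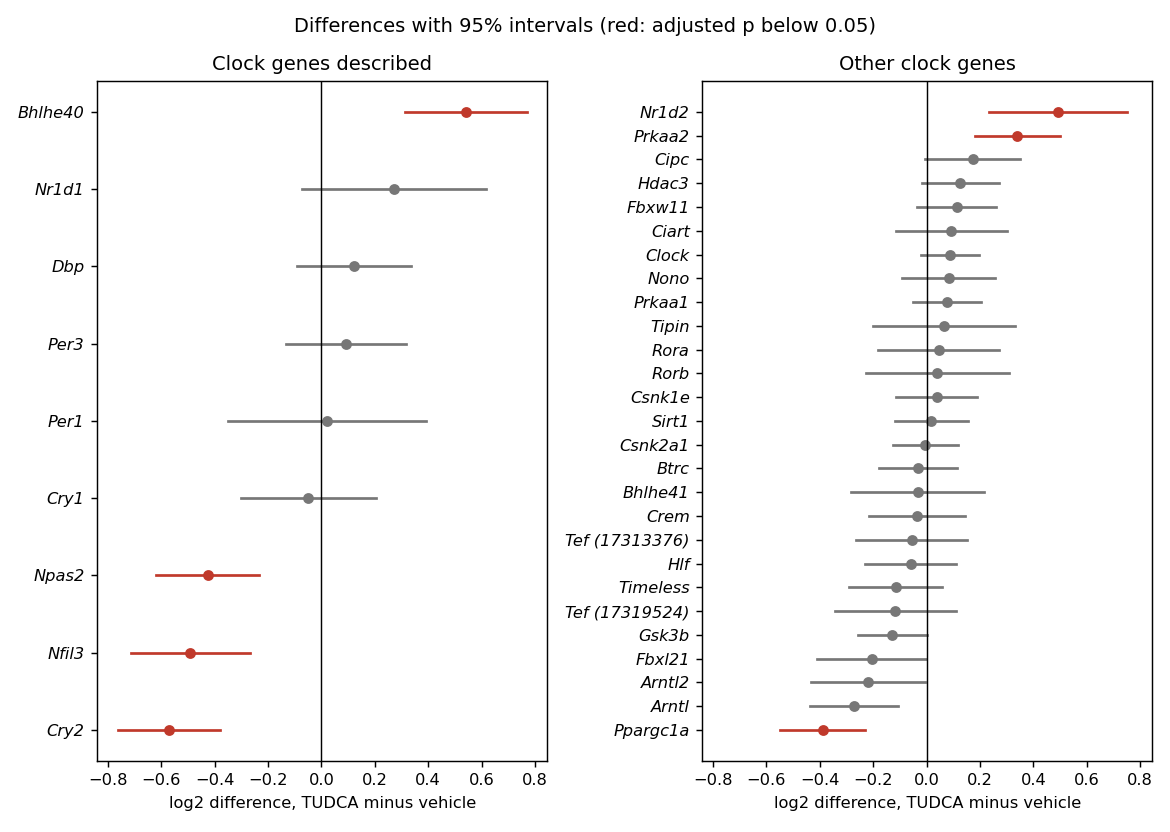
Log2 difference between TUDCA and vehicle with its 95% interval, for the 9 measured clock genes at the left and for 26 further clock genes at the right (Tef has 2 probe sets); red marks an adjusted p below 0.05. Cry2, Nfil3, Npas2 and Ppargc1a lie below 0 and Bhlhe40, Nr1d2 and Prkaa2 above it.

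Other genes of the clock were described from a list of 30 that the members were not part of, of which 26 were measured. Of their 27 probe sets 2 rose and 1 fell, where 1.00% of all probe sets were called higher and 1.52% lower. The median difference was 0.02, beside 0.01 over all probe sets. Nr1d2, the paralogue of Nr1d1, rose by 0.49 within the number ranges (adjusted p = 0.0462 in limma). Without regard to range, its median was 7.37 (7.27 to 7.65) under vehicle and 7.96 (7.61 to 8.25) under TUDCA. The groups overlapped slightly, and the call of Nr1d2 is marginal: it held in 4 of 12 omissions of an array, with adjusted p up to 0.173 without TUDCA replicate 1.

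Arntl, encoding BMAL1, the partner of both CLOCK and NPAS2, did not pass the test, although all its TUDCA arrays (8.71 to 9.003) lay below all its vehicle arrays (9.02 to 9.28). The difference was -0.27 (95% interval -0.44 to -0.11, adjusted p = 0.0842). Clock stood at 10.613 to 10.77 under TUDCA and at 10.43 to 10.607 under vehicle, again without overlap, a difference of 0.09 (95% interval -0.02 to 0.20, adjusted p = 0.477). The 2 alternative partners of BMAL1 thus had differences of opposite sign, and only that of Npas2 passed. The difference between them was not tested. Arntl, Clock and Gsk3b (-0.13, adjusted p = 0.357 in limma) were the 3 of 27 probe sets of this list whose groups did not overlap. Such a separation was shown by 1.98% of all probe sets.

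Ppargc1a, encoding the coactivator PGC-1α that works with ROR receptors, fell by 0.39 within the number ranges (adjusted p = 0.0133). Without regard to range, its means were 8.70 ± 0.11 (SD, n = 6) under vehicle and 8.41 ± 0.25 (SD, n = 6) under TUDCA. Its call ended without TUDCA replicate 1 (adjusted p = 0.0582) and without the number range as a term (adjusted p = 0.172). Prkaa2, encoding a catalytic subunit of AMPK, a kinase that marks cryptochromes for degradation, rose by 0.34 (adjusted p = 0.0251), from 9.29 ± 0.12 (SD, n = 6) to 9.63 ± 0.11 (SD, n = 6). The call of Prkaa2 held in 7 of 12 omissions of an array, with adjusted p up to 0.12 without TUDCA replicate 1. The D-box factors Tef and Hlf, the E-box repressors Ciart and Bhlhe41 and the receptor genes Rora and Rorb had differences between -0.12 and 0.09 (adjusted p of 0.691 or more).

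**Figure D3:**
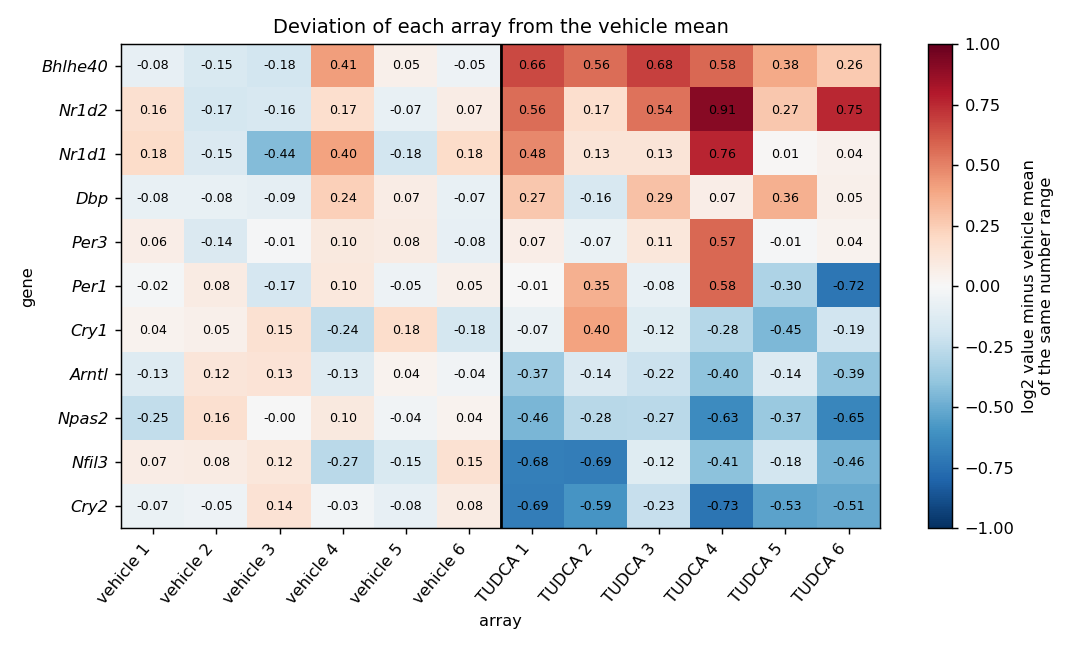
Deviation of each array (columns, vehicle at the left and TUDCA at the right) from the mean of the vehicle arrays in its own range, in log2 units, for the 9 measured clock genes together with Nr1d2 and Arntl (rows). Cry2, Nfil3, Npas2 and Arntl are below 0 and Bhlhe40, Nr1d2 and Nr1d1 above 0 in all 6 TUDCA arrays, while Per1 runs from -0.72 to 0.58.

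Set against the vehicle arrays of their own number range, Cry2, Npas2, Nfil3 and Arntl were lower and Bhlhe40, Nr1d1 and Nr1d2 higher in 6 of 6 TUDCA arrays. Of these, Nr1d1 (adjusted p = 0.491 in limma) and Arntl (0.0842) were not called. Clock, also not called (0.477), was higher in 6 of 6 as well. Of the further clock genes, Prkaa2 and Hdac3 were also higher and Ppargc1a and Gsk3b lower in 6 of 6. Among them, Hdac3 (adjusted p = 0.423 in limma) and Gsk3b (0.357) were not called. The share of all probe sets with such agreement was not counted, and in the high range the vehicle mean rests on 2 arrays. The sizes of the deviations differed from array to array. TUDCA replicate 4 had the largest deviations of Cry2 (-0.73), Nr1d2 (0.91), Nr1d1 (0.76) and Arntl (-0.40), and also the highest Per1 and Per3. TUDCA replicate 3 had the smallest deviations of Cry2 (-0.23) and Nfil3 (-0.12) and the largest of Bhlhe40 (0.68). TUDCA replicate 6 combined the largest deviation of Npas2 (-0.65) with the smallest of Bhlhe40 (0.26).

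**Figure D4:**
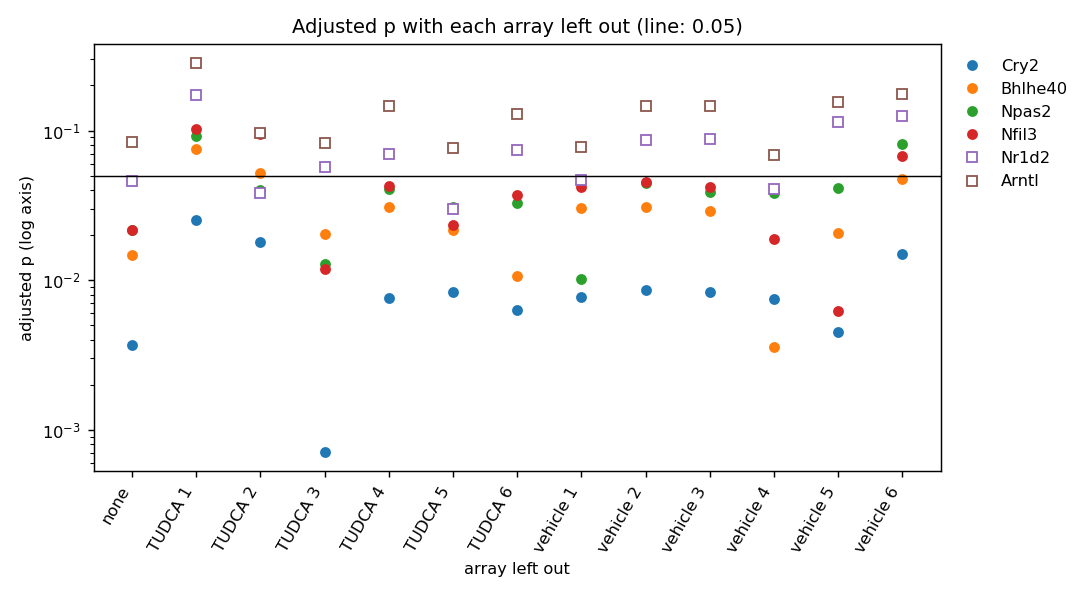
Adjusted p of 6 clock genes with all arrays (none) and with each array left out in turn, on a log axis; filled circles are 4 of the measured clock genes, open squares Nr1d2 and Arntl, and the line marks 0.05. Cry2 stays below the line throughout, and Bhlhe40, Npas2 and Nfil3 cross it when TUDCA replicate 1 is left out.

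Within the treatment groups, the clock genes were compared with each other after removal of treatment and number range. Of 36 pairs, 20 correlated positively and 16 negatively over the 12 arrays, and 0 passed after Benjamini-Hochberg adjustment over the pairs (2 had an unadjusted permutation p below 0.05). The strongest pair was Per3 with Nr1d1 (Pearson r = 0.67, permutation p = 0.029, adjusted p = 0.494, and Spearman rho = 0.43, permutation p = 0.164, adjusted p = 0.53). Without the 2 arrays farthest from the median of Per3, r was 0.38, so the relation rests on those arrays. Within the low and high number ranges r was 0.61 and 0.77. On log2 values from which the number range was not removed, r was 0.84 among the TUDCA arrays (n = 6, exact permutation p = 0.0208). Among the vehicle arrays it was 0.34 in the same way (n = 6, exact permutation p = 0.482).

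The most negative pair was Cry1 with Dbp (r = -0.63, permutation p = 0.0481, adjusted p = 0.494; rho = -0.52, permutation p = 0.0844, adjusted p = 0.512). It stood at -0.66 without the 2 arrays farthest from the median of Cry1. Within the low and high number ranges it was -0.94 and -0.13. Within the TUDCA and vehicle arrays, again without removal of the number range, it was -0.61 and -0.68 (n = 6 each, exact permutation p = 0.215 and 0.104). The 2 genes that fell most, Cry2 and Nfil3, had r = 0.59 (permutation p = 0.0687, adjusted p = 0.494; rho = 0.48, permutation p = 0.121, adjusted p = 0.53), and r was 0.525 without the 2 arrays farthest from the median of Cry2.

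**Figure D5:**
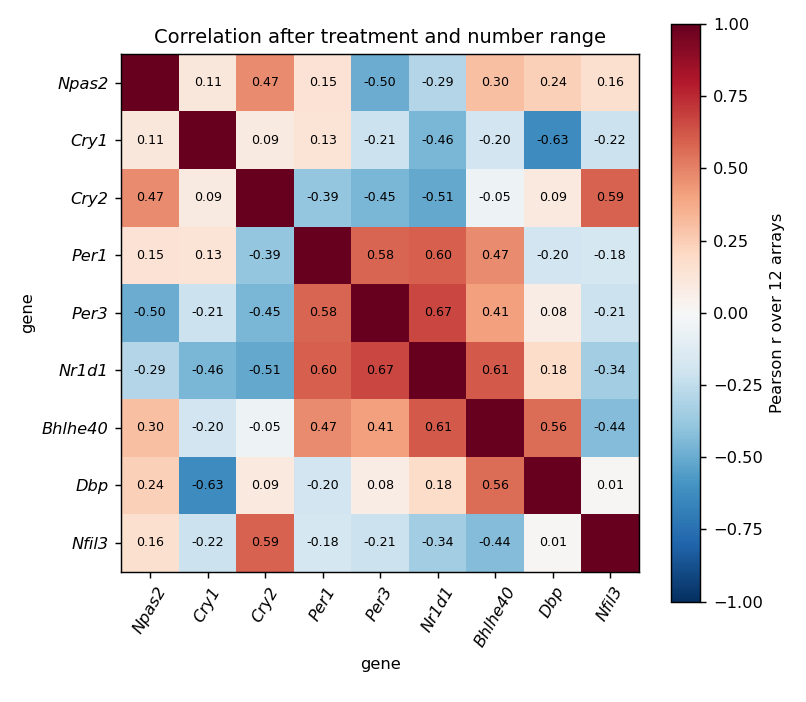
Pearson r between the 9 measured clock genes over 12 arrays after removal of treatment and number range, from -1 (blue) to 1 (red), with both axes listing the same genes. Nr1d1 has r from 0.60 to 0.67 with Per1, Per3 and Bhlhe40, and Cry1 with Dbp has the lowest value, -0.63; no pair passes adjustment.

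For the 4 called genes and for Dbp and Nr1d1, the 3 genes with the most similar residuals over the 12 arrays were looked up among all probe sets naming 1 gene. Nrep and Ppp1r14a, a phosphatase inhibitor of smooth muscle, were nearest to Nfil3 (r = 0.96 each), followed by Marveld1 (0.94). Lrrc61, Sike1 and Supt20 were nearest to Bhlhe40 (0.96 each). For Npas2 they were Procr, the endothelial protein C receptor (0.93), Spry1 (0.91) and Adgrg2 (0.91), and for Cry2 Hey2 (0.93), A230107N01Rik (0.93) and Klhl33 (0.92). Rnaseh2b, 7630403G23Rik and Cenpi were nearest to Nr1d1 (0.92 or 0.93), and Vmn1r214, Gimap8 and Pkn3 to Dbp (0.91 or 0.92). None of these 18 genes is a clock gene of the lists used here, and none passed the test between TUDCA and vehicle. As the highest of 21557 values over 12 arrays, these r are a description only.

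Among 15 measured outputs and rhythmic genes of the intestine, 2 fell and the others did not pass, with a median difference of -0.14. Over all probe sets, 1.52% were called lower. Slc15a1, the peptide transporter PEPT1 and a known target of DBP that is also in the enterocyte list, fell by 0.70 within the number ranges. The groups did not overlap (adjusted p = 0.000788, and 0.00599 or less with any 1 array left out). Without regard to range, the means were 11.75 ± 0.11 (SD, n = 6) under vehicle and 11.09 ± 0.20 (SD, n = 6) under TUDCA. Abcg2, an efflux transporter, fell by 0.30 (adjusted p = 0.0467), a call that held in 1 of 12 omissions of an array, with adjusted p up to 0.202. Usp2, a strongly rhythmic deubiquitinase gene, was at -0.51 (adjusted p = 0.155), the sodium-proton exchanger Slc9a3 at -0.55 (adjusted p = 0.199) and the glucose transporter Slc5a1 at -0.22 (adjusted p = 0.184).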

How the data were processed

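Gene expression was measured on 12 Affymetrix arrays of total RNA from small intestine, 6 per treatment. The authors deposited log2 values per probe set; oligo and RMA are named in the submitters' processing notes, with versions not given, and the deposited values were used unchanged. Genes were named through the platform annotation, in which 21557 of 23991 probe sets name 1 gene, 787 several and 1647 none. Array medians lay between 5.90 and 5.95 and correlations between arrays between 0.984 and 0.993; the number of arrays limits the precision.

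All probe sets were fitted together in limma 3.58.1 (R 4.3.3; lmFit, and eBayes with a trend) with treatment and number range (sample number below or above 100) as terms, and p-values were adjusted by Benjamini-Hochberg over 23991 probe sets, with a threshold of 0.05. The scripts were tested on simulated data. Single genes were also tested by exact permutation within ranges, and correlations by 100000 resamples. The labels do not say that each array is a separate mouse, so p-values measure the spread between arrays. Alternatives were other terms, normalisations, variance models, thresholds and omissions of each array.

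The members and gene lists were chosen with earlier results of these data known. Named were all members and the 3 genes most alike in residuals. From the other clock, output, glucocorticoid and immediate early lists came the genes past the threshold or with the smallest p. Clock, Gsk3b, Hdac3, Tef, Hlf, Ciart, Bhlhe41, Rora, Rorb, Fos and Atf3 were added after their values were seen. So were the cell type markers Vil1, Fabp2, Muc2, Fabp1, Lct, Foxc1 and Pdgfra. Promoters came from RefSeq (GRCm38.p6).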

Additional observations from a re-analysis of the deposited data

Results flagged for a closer look

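In 18 groups of 6 arrays (9 clock genes, 2 treatments), 2 held an array standing apart from the rest of its group by a gap above Dixon's 95% critical value for its size, which chance passes in about 5% of groups. For Bhlhe40, vehicle replicate 4 stood at 9.48 with the nearest vehicle array at 9.06, a gap of 0.693 of the range. For Per3, TUDCA replicate 4 stood at 6.46 with the nearest TUDCA array at 6.01, a gap of 0.761 of the range. The same array had the highest Per1 and Nr1d1 of the TUDCA group.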

How the results depend on the processing

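The call of Cry2 ended in 1 of 25 alternatives, the high number range alone (-0.50, adjusted p = 0.328), and those of Npas2, Nfil3 and Bhlhe40 in 5 of 25 each; all 4 kept their sign. Of all probe sets, 241 were called higher and 364 lower. With the high range alone these were 6 and 3; 436 were higher with array weights and 429 at a threshold of 0.1. Leaving out 1 array gave 91 to 292 higher and 151 to 417 lower, fewest without TUDCA replicate 1. Clock genes called higher numbered 0 with either range alone and 0 to 1 with 1 array left out; those called lower numbered 0 in the high range alone and 1 to 3 with 1 array left out. A range alone has fewer arrays; other causes were not tested. The labels do not say that replicate numbers pair the arrays, and deviations of same-numbered arrays correlated at -0.06 to 0.26, not above 0.1 for every number, so the numbers were not used as pairs. Even so, 4 of 6 TUDCA arrays matched their own number best, a hint towards pairing that was taken before the number range was removed. With the range removed, deviations of same-numbered arrays correlated at -0.21 to 0.24. With the replicate block and the number range, 85 probe sets were higher and 190 lower, and 0 and 1 clock genes; Npas2 (adjusted p = 0.0939), Nfil3 (0.0704) and Bhlhe40 (0.084) were not called, nor were Prkaa2 (0.232), Ppargc1a (0.0853), Nr3c1 (0.0622) and Zfp36 (0.155). The sign of Cry1 turned in the low range alone (0.17) and without vehicle replicate 5 (0.0719). That of Per1 turned with the replicate block and the number range (-0.19), in the high range alone (-0.13), and without TUDCA replicate 2 (-0.0846), TUDCA replicate 4 (-0.083) or vehicle replicate 3 (-0.0133), with values up to 0.122 in the other omissions. By exact permutation, added after seeing the data for omissions and without the number range, 4 clock genes had p below 0.05 in each setting.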

Other observations

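Glucocorticoids set the phase of peripheral clocks, so genes that respond to them were measured too. Of 10 such genes 1 fell, Nr3c1, the glucocorticoid receptor gene, by 0.29 within the number ranges (adjusted p = 0.0245 in limma). Without regard to range, its means were 9.63 under vehicle and 9.37 under TUDCA. The Nr3c1 call ended in 3 omissions (TUDCA replicates 1 and 2 and vehicle replicate 2, adjusted p up to 0.115). It also ended without the number range as a term (adjusted p = 0.0526). The receptor's targets Tsc22d3 (-0.33, adjusted p = 0.17), Fkbp5 (0.29, adjusted p = 0.343) and Sgk1 (-0.52, adjusted p = 0.377) did not pass. The median of the 10 was -0.05, beside 0.01 over all probe sets, of which 1.52% were called lower.

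Immediate early genes, which respond within minutes to many stimuli, were measured because Per1 and Bhlhe40 can be induced in the same way. Of 21 measured, 2 fell, beside 1.52% of all probe sets: Jun by 0.50 (adjusted p = 0.0251) and Zfp36 by 0.39 (adjusted p = 0.0448). The call of Jun was lost in 4 omissions (TUDCA replicates 1 and 2, vehicle replicates 1 and 6; adjusted p up to 0.113), and that of Zfp36 held in 3 of 12 omissions of an array. Without the number range as a term neither was called, with Jun at -0.30 (adjusted p = 0.487) and Zfp36 at -0.30 (adjusted p = 0.218). Maff (0.29, adjusted p = 0.12 in limma) and Klf4 (-0.23, adjusted p = 0.166) had the next smallest p and did not pass. Neither did Fos (0.72, adjusted p = 0.213) or Atf3 (0.62, adjusted p = 0.304), and the median of the list was -0.05.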
